A study of Sus scrofa with 9 samples.

Results

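Solute carriers are membrane proteins that move nutrients, metabolites and organic ions across the plasma membrane or the membranes of organelles. The genes described here belong to the carrier families for amino acids (SLC1, SLC3, SLC6, SLC7, SLC36, SLC38), sugars and other sodium-coupled solutes (SLC2, SLC5), peptides (SLC15), monocarboxylates (SLC16), organic cations and anions (SLC22), fatty acids (SLC27) and nucleosides (SLC28, SLC29). Members were chosen by symbol alone, as genes with a probe set of a single symbol in 15 such families. Of 12217 measured genes 87 were members, in 14 of the 15 families, since no SLC43 gene was among them. The label of organic solutes holds for most of them, with a few exceptions: SLC5A5 carries iodide, SLC22A17 is a receptor for lipocalin-bound iron, and SLC38A9 is a lysosomal amino acid sensor.

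RNA from the esophagus of pigs was read on 9 PorGene 1.0 ST arrays of Affymetrix, with 1 sample on each array and 3 biological replicates in each group. Esophageal submucosal glands (ESMG), which secrete mucus and fluid onto the esophageal lining, and the squamous tissue above them were taken from the same control animals, pigs 37, 39 and 40. Spheroids were grown in vitro from ESMG and carry the labels pig 1, pig 2 and pig 3. The labels tie these animals to none of pigs 37, 39 and 40, and give no age. They were cultured in growth factor reduced Matrigel under Advanced DMEM/F12 with 10 mM HEPES, B27, N2 and 50 ng/ml recombinant human EGF, so that cell source, culture medium and RNA kit all differ between spheroids and tissue and cannot be told apart. Levels are on the log2 scale of RMA, a standard summary of array probes, where a step of 1 means 2-fold. In the sentences that follow, 3 values of a tissue are those of pigs 37, 39 and 40 in that order, and 3 values of spheroids those of pigs 1, 2 and 3.

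In epithelia, carriers are divided by role. Facilitative carriers such as the GLUT sugar carriers (SLC2) let a solute run down its gradient, sodium-coupled carriers (SLC1, SLC5, SLC6, SLC28, SLC38) gather it against the gradient, and exchangers such as those of SLC7 trade 1 amino acid for another. Secretory gland cells draw amino acids, and in some glands iodide, from the blood, and growing cells in culture take up glutamine, glutamate, glucose and nucleosides from the medium.

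Marker genes of cells other than epithelium differed between the groups. Of 9 fibroblast and matrix markers all 9 were lower in spheroids than in ESMG, and the mean level of the list was 11.36 to 11.69 in ESMG, 11.30 to 11.65 in squamous tissue and 6.89 to 7.69 in spheroids. Smooth muscle markers fell in 7 of 7 (10.33 to 10.96, 11.28 to 11.61 and 6.75 to 7.19), endothelial markers in 6 of 7 (8.14 to 8.20, 8.05 to 8.31 and 6.39 to 6.52) and leukocyte markers in 6 of 10 (7.63 to 8.92, 7.28 to 7.96 and 6.75 to 6.80). Adipocyte markers fell in 0 of 6, nerve and glia markers in 1 of 4 and skeletal muscle markers in 1 of 5. PPARG of the adipocyte list (1.66) and UCHL1 of the nerve and glia list (1.12) were called higher in spheroids than in ESMG. Both were also higher than in squamous tissue (1.51 and 1.06). Against squamous tissue, the fibroblast, smooth muscle, endothelial and leukocyte markers called lower in spheroids were 9 of 9, 7 of 7, 6 of 7 and 4 of 10, while the leukocyte markers AIF1 (1.27) and LCP1 (1.26) were higher there. Between the tissues, 2 of 7 smooth muscle and 1 of 5 skeletal muscle markers were lower and 1 of 10 leukocyte markers was higher in ESMG. No marker can be called absent, since no detection call was used, and levels differed within a list. ACTA2 of smooth muscle stood at 6.73 in spheroids against 12.62 in ESMG, and TAGLN of the same list at 10.24 against 11.90. Of the leukocyte list, PTPRC stood at 5.57 against 8.51 and LCP1 at 9.52 against 9.51. AIF1 was higher in spheroids than in ESMG (8.08 against 7.26), by less than 2-fold (0.82, limma adjusted p = 0.0321). The part of these cells in any carrier's fall was not tested, and in samples of mixed cells, fewer cells of a type and less RNA per cell cannot be told apart. Of 8 gland markers 7 were higher in ESMG than in squamous tissue and 4 lower in spheroids than in ESMG (MUC19, LPO, PIGR and CLCA1), with a mean level of 10.71 to 11.44 in ESMG, 6.98 to 8.20 in squamous tissue and 8.87 to 9.02 in spheroids. AGR2 (-0.66), KRT8 (0.26), KRT18 (0.24) and BPIFB1 (0.08) were not called between spheroids and ESMG. Against squamous tissue, 5 of the 8 were called higher in spheroids (AGR2, KRT18, CLCA1, KRT8 and PIGR) and 1 lower (LPO). The squamous genes KRT5, CRNN and A2ML1 were called in neither direction between the tissues, and CRNN and A2ML1 were lower in spheroids than in either tissue. KRT5 went the other way, by less than 2-fold. Its spheroid arrays lay above those of ESMG (0.90, limma adjusted p = 0.00185) and of squamous tissue (0.46, adjusted p = 0.0622). The ESMG array of pig 40 had the lowest gland marker level of its group (10.71, against 11.37 and 11.44), and it was the lowest ESMG array in 7 of the 8 carriers that were higher in ESMG. How often it was the lowest among all genes higher in ESMG was not counted, so the 7 have no background beside them.

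A gene counted as called where its groups differed by 2-fold or more and the limma adjusted p was below 0.05. Between ESMG and squamous tissue, 8 of 87 carriers were called (9.2%, against 3.06% of all genes tested), all 8 higher in ESMG (background 2.65%) and 0 lower (background 0.409%). Without the ESMG array of pig 40 the count was 10. In spheroids against ESMG, 19 were called (21.8%, against 16.9%), 5 higher (5.75%, against 7.99%) and 14 lower (16.1%, against 8.91%). In spheroids against squamous tissue, 18 were called (20.7%, against 16.7%), 7 higher (8.05%, against 8.61%) and 11 lower (12.6%, against 8.05%). The shares called higher in spheroids, and the share called in all against squamous tissue, lay near the background. Over all genes, cyclic loess turned the split of 976 higher and 1089 lower against ESMG into 698 and 1320, and that of 1052 and 983 against squamous tissue into 810 and 1137. For the carriers cyclic loess gave 4 higher and 16 lower, and 6 higher and 12 lower.

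Carriers went both ways. The median log2 difference over the 87 was -0.07 between ESMG and squamous tissue, 0.06 between spheroids and ESMG and 0.02 between spheroids and squamous tissue, beside -0.06, 0.09 and 0.03 over all genes, and the middle part of the carriers in spheroids versus ESMG spanned -0.62 (lower quartile) to 0.31 (upper quartile). In all, 24 carriers were called in at least 1 comparison and 63 in none. The share of all genes called in at least 1 comparison was not counted, so the 24 have no background beside them. By the adjusted p alone, 39 carriers differed in spheroids versus ESMG (background 41.5%), 32 in spheroids versus squamous tissue (background 40.9%) and 12 in ESMG versus squamous tissue (background 6.05%), so that 20, 14 and 4 of them moved by less than 2-fold. Another 8, SLC5A11, SLC5A12, SLC15A5, SLC16A4, SLC22A16, SLC27A2, SLC28A2 and SLC38A11, had a mean under 5.36, the lowest lower quartile of any array, in every group, where RMA compresses differences.

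**Figure D1:**
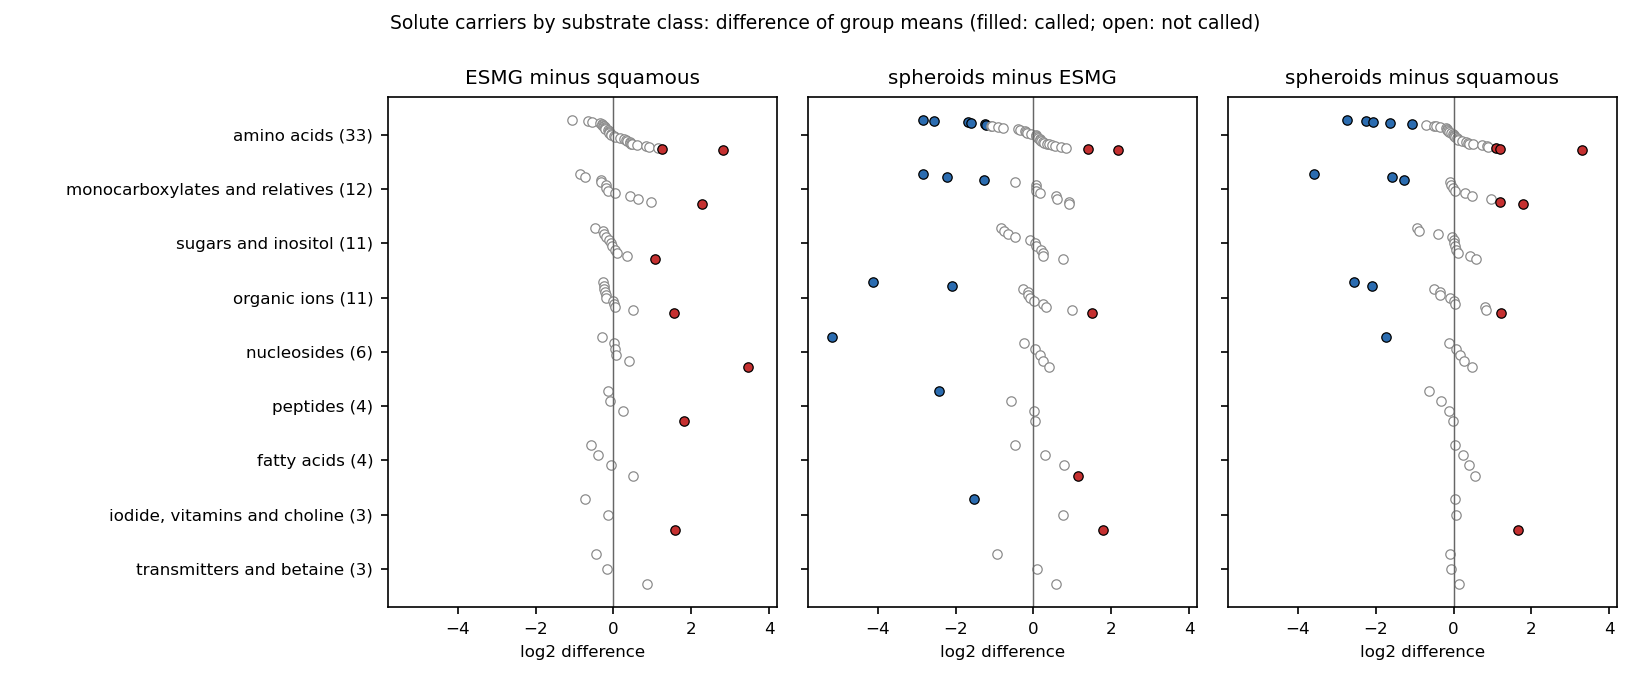
Log2 difference of group means (x axis) of the 87 carriers in each comparison, 1 point per gene, by substrate class with the number of members (y axis); filled points were called (red higher, blue lower) and open points were not. The 8 called points in ESMG versus squamous all lie to the right, and the longest fall, in spheroids versus ESMG, is the nucleoside carrier SLC28A3 at -5.19.

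Among 33 amino acid carriers, 2 were higher and 6 lower in spheroids than in ESMG (6.06% and 18.2%, against 7.99% and 8.91% of all genes), and 3 were higher and 5 lower than in squamous tissue (9.09% and 15.2%, against 8.61% and 8.05%). Those of the SLC1 family, the sodium-coupled carriers of glutamate and of small neutral amino acids, went in opposite directions. Of 7 measured, 2 rose and 2 fell in spheroids against ESMG (57.1% called, against 16.9% of all genes). Against squamous tissue 2 rose and 1 fell (42.9%, against 16.7%). SLC1A1, the epithelial glutamate and cysteine carrier EAAT3, read 9.64, 9.44 and 9.99 in spheroids, 8.12, 7.09 and 7.37 in ESMG and 5.32, 6.45 and 7.38 in squamous tissue. All spheroid arrays lay above all tissue arrays, and squamous tissue was the most spread. The tissues differed by 1.14 (adjusted p = 0.162), which was 1.64 and called without the squamous array of pig 40. SLC1A1 was 4.48-fold higher in spheroids than in ESMG (log2 difference 2.16, SE 0.42, adjusted p = 0.00152) and 9.89-fold higher than in squamous tissue (log2 difference 3.31, SE 0.42, adjusted p = 7.78e-05). SLC1A6, a glutamate carrier best known from the cerebellum, read 7.22, 7.09 and 8.02 in spheroids against 6.07, 5.91 and 6.10 in ESMG and 6.40, 6.48 and 5.90 in squamous tissue, with no overlap. Its log2 difference was 1.41 from ESMG (adjusted p = 0.000517) and 1.18 from squamous tissue (adjusted p = 0.00173), and the latter was 0.90, under the fold minimum, without the spheroid array of pig 3.

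The glutamate carriers that fell are best known from glia. SLC1A3 (GLAST) read 8.66, 9.0 and 8.52 in ESMG, 8.04, 8.09 and 8.58 in squamous tissue and 5.97, 6.01 and 6.53 in spheroids. Tissue and spheroid arrays were wholly apart, a fall of 5.86-fold from ESMG (log2 difference -2.55, SE 0.20, adjusted p = 2.58e-06) and of 4.18-fold from squamous tissue. SLC1A2 (GLT-1) read 6.50, 6.59 and 5.88 in ESMG, 4.76, 5.35 and 5.09 in squamous tissue and 5.37, 5.12 and 4.81 in spheroids. ESMG was above both other groups without overlap, by 1.25 over squamous tissue (adjusted p = 0.00658) and by 2.33-fold over spheroids (adjusted p = 0.000990). All squamous and spheroid arrays of SLC1A2 lay under 5.4, near the floor. The glutamine carrier SLC1A5 (ASCT2), which supplies dividing cells, read 10.69, 10.19 and 9.56 in ESMG, 9.37, 9.15 and 9.20 in squamous tissue and 10.14, 9.93 and 9.84 in spheroids. Spheroid and ESMG arrays overlapped (log2 difference -0.18, 95% interval -0.69 to 0.33), and both groups lay above squamous tissue by less than 2-fold (0.91, adjusted p = 0.0432, and 0.73, adjusted p = 0.0263). Without the ESMG array of pig 40 the difference between the tissues was 1.20 and called. SLC1A4 and SLC1A7 were called in no comparison.

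In SLC7, the exchangers and cationic amino acid carriers, 2 of 7 fell and none rose in spheroids against either tissue. This was 28.6% called in each comparison, against 16.9% (ESMG) and 16.7% (squamous tissue) of all genes. The arginine and lysine carrier SLC7A2 read 7.43, 7.42 and 7.71 in ESMG, 8.5, 7.74 and 8.26 in squamous tissue and 6.11, 6.25 and 5.35 in spheroids, 3.06-fold lower in spheroids than in ESMG (adjusted p = 0.000294) and 4.80-fold lower than in squamous tissue (adjusted p = 2.39e-05). Its relative SLC7A1, the widely expressed carrier of the same amino acids, was not called, at -0.39 (95% interval -0.77 to -0.01) and -0.51 (-0.89 to -0.13). SLC7A10 (asc-1), an exchanger of small neutral amino acids, fell from 7.13, 7.32 and 8.05 in ESMG and 7.54, 7.33 and 7.11 in squamous tissue to 6.28, 6.35 and 6.14 in spheroids (log2 differences -1.25 and -1.07). Under the fold minimum fell the first difference when the ESMG array of pig 40 was left out (-0.97), and the second when the squamous array of pig 37 was left out (-0.97). The light chain SLC7A7 was -0.91 in spheroids against ESMG and 0.84 in ESMG against squamous tissue, with adjusted p of 0.00114 and 0.0133, both under 2-fold. SLC7A8, a carrier of large neutral amino acids, read 6.88, 7.74 and 7.13 in spheroids, 7.03, 6.56 and 6.99 in ESMG and 6.03, 6.48 and 6.68 in squamous tissue. It had 95% intervals of -0.13 to 0.92 against ESMG and 0.33 to 1.38 against squamous tissue, and was called against squamous tissue (1.04) without the spheroid array of pig 1. SLC3A1, the heavy chain that partners SLC7A9 in kidney and gut, was lower in spheroids than in ESMG by less than 2-fold (-0.79, adjusted p = 0.00136).

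SLC16A10 (TAT1), a facilitative carrier of tyrosine, tryptophan and phenylalanine, was the amino acid carrier with the widest gap between the tissues. It read 8.65, 8.68 and 7.57 in ESMG, 5.62, 5.30 and 5.53 in squamous tissue and 5.56, 5.65 and 5.18 in spheroids. The squamous and spheroid arrays interleaved and all lay below every ESMG array, of which pig 40 was the lowest. ESMG was 7.05-fold above squamous tissue (log2 difference 2.82, SE 0.27, adjusted p = 0.000108) and spheroids were 7.13-fold below ESMG (log2 difference -2.83, SE 0.27, adjusted p = 8.46e-06). The difference of spheroids from squamous tissue was -0.02 (95% interval -0.60 to 0.57). The squamous and spheroid values of SLC16A10 lay near the lower quartiles of the arrays (5.36 to 5.65), so these folds and this difference depend on values near the floor.

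Of 7 SLC38 carriers, the sodium-coupled carriers of glutamine and alanine, 1 was called in spheroids against squamous tissue (14.3%, against 16.7% of all genes). Against ESMG 0 were called (background 16.9%). SLC38A1 read 10.78, 10.45 and 10.83 in spheroids, 10.20, 9.80 and 9.58 in ESMG and 10.29, 8.96 and 9.54 in squamous tissue, 2.13-fold above squamous tissue (adjusted p = 0.00936) and 0.83 above ESMG, under the fold minimum (adjusted p = 0.0367). The call against squamous tissue ended without the squamous array of pig 39 (0.77), after quantile normalization (0.93), after cyclic loess (0.91) and with array weights (0.72). SLC38A2, a carrier that cells raise on amino acid shortage, read 12.17, 12.31 and 12.64 in ESMG, 12.31, 12.24 and 12.78 in squamous tissue and 12.74, 12.24 and 12.71 in spheroids. The groups overlapped, with 95% intervals of -0.24 to 0.62 (spheroids versus ESMG) and -0.51 to 0.36 (ESMG versus squamous). The lysosomal SLC38A7 was 0.72 higher in spheroids than in ESMG, under the fold minimum (adjusted p = 0.000766), and SLC38A9 read 7.62, 7.01 and 8.98 in spheroids against 9.19, 9.18 and 8.41 in ESMG, overlapping and not called (-1.06, adjusted p = 0.0539). It was called lower in spheroids after each of the 3 other scalings (-1.30 to -1.05), and when the ESMG array of pig 40 (-1.32) or the spheroid array of pig 3 (-1.61) was left out. The lone high spheroid value of SLC38A9 was that of pig 3.

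SLC6A15, a carrier of branched-chain amino acids and proline known from neurons, read 7.22, 5.64 and 7.30 in squamous tissue, 5.48, 5.58 and 5.95 in ESMG and 3.96, 4.07 and 3.91 in spheroids. The squamous array of pig 39 lay with the ESMG arrays, and every spheroid array was below all tissue arrays (6.67-fold below squamous tissue, adjusted p = 7.9e-05, and 3.22-fold below ESMG, adjusted p = 0.00227). The spheroid values of SLC6A15 were below every array's lower quartile, so these folds depend on values near the floor. The tissues differed by -1.05 (adjusted p = 0.117), and by -1.59 and called without the squamous array of pig 39. SLC6A5, SLC6A7, SLC6A17, SLC6A18 and SLC6A19, carriers of glycine, proline and neutral amino acids, were called in no comparison. Of the proton-coupled SLC36 carriers, SLC36A2 differed more between animals than between tissues. It read 5.99, 7.68 and 7.38 in ESMG and 6.12, 8.85 and 7.74 in squamous tissue, with pig 37 low in both tissues and at the level of the spheroids (6.03, 6.10 and 5.66). Its call as lower in spheroids than in squamous tissue (log2 difference -1.64, adjusted p = 0.0400) ended without the squamous array of pig 39 (-1.0) or 40 (-1.55) or any 1 spheroid array, and the difference was -2.37 without the squamous array of pig 37. Against ESMG the difference was -1.08 (adjusted p = 0.160), and -1.60 and called without the ESMG array of pig 37.

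**Figure D2:**
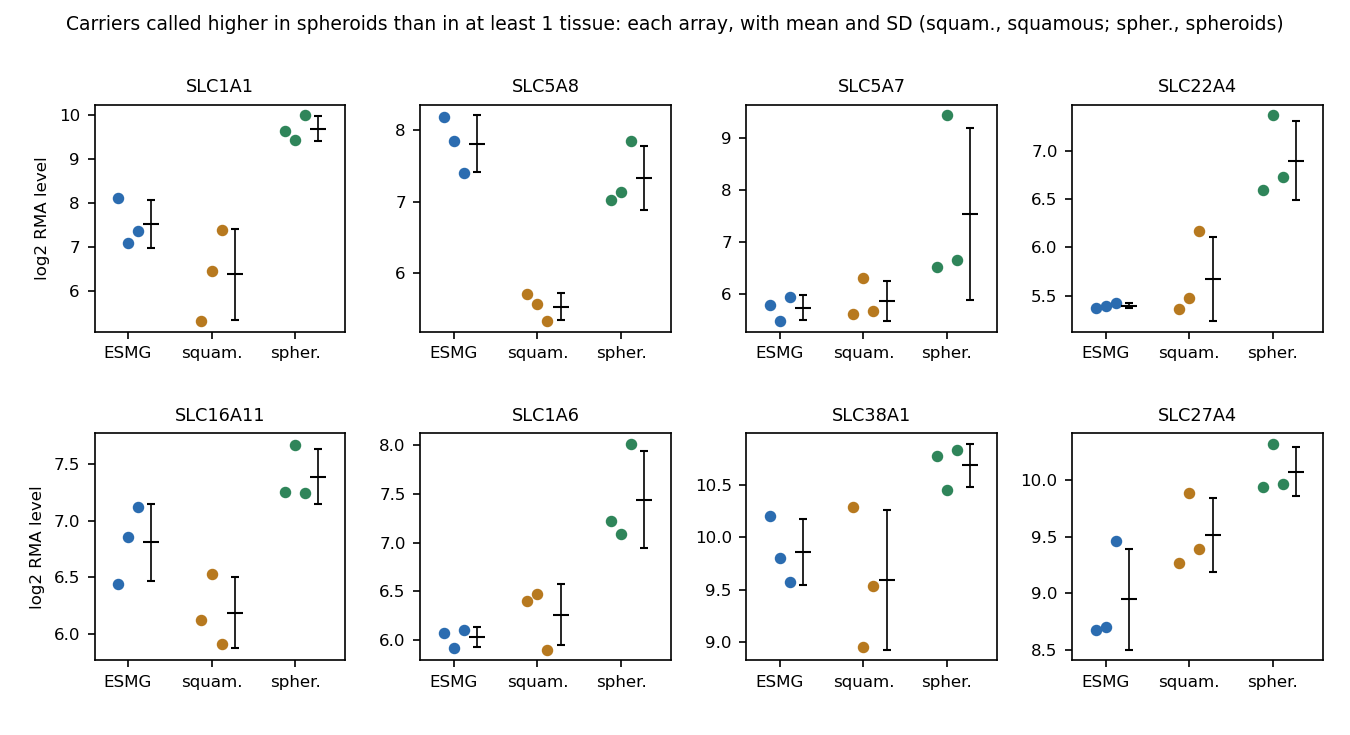
Log2 RMA level (y axis) of the 8 carriers called higher in spheroids than in at least 1 tissue, with each array as a point and the mean and SD (n = 3) as a bar beside it. The spheroid array of pig 2 stands alone at 9.43 in SLC5A7, and the SLC5A8 points of ESMG and spheroids overlap.

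Among 12 carriers of monocarboxylates and related solutes, none rose and 3 fell in spheroids against ESMG (25% called, against 16.9% of all genes), and 2 rose and 3 fell against squamous tissue (41.7%, against 16.7%). The largest fall was in SLC16A9 (MCT9), a carrier linked to carnitine and creatine. It read 8.39, 8.43 and 9.02 in ESMG, 9.09, 9.29 and 9.67 in squamous tissue and 5.79, 5.71 and 5.79 in spheroids, whose 3 arrays agreed within 0.1. These spheroid values lay just above the arrays' lower quartiles (5.36 to 5.65), and RMA compresses differences near the floor. Spheroids were 12-fold below squamous tissue (log2 difference -3.58, SE 0.20, adjusted p = 1.43e-07) and 7.21-fold below ESMG (log2 difference -2.85, SE 0.20, adjusted p = 7.84e-07). ESMG was also below squamous tissue without overlap, a difference of -0.73 that passed the adjusted p (0.0492) but not the fold minimum.

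SLC16A7 (MCT2), a carrier with high affinity for pyruvate and lactate, read 9.25, 9.06 and 8.09 in ESMG, 7.96, 7.76 and 7.81 in squamous tissue and 6.31, 6.60 and 6.83 in spheroids, without overlap between any 2 groups. It fell 4.66-fold from ESMG (adjusted p = 4.31e-05) and 2.40-fold from squamous tissue (adjusted p = 0.00218). The tissues differed by 0.96 (adjusted p = 0.0548), and by 1.31 and called without the ESMG array of pig 40. SLC16A14, whose substrate is little known, fell from 6.95, 7.35 and 6.98 in ESMG and 7.50, 7.27 and 7.45 in squamous tissue to 6.20, 5.51 and 5.76 in spheroids (log2 differences -1.27 and -1.58). SLC16A1 (MCT1), the main lactate and pyruvate carrier of most cells, read 9.20, 8.66 and 9.03 in spheroids, 9.29, 8.33 and 9.14 in squamous tissue and 8.36, 7.49 and 8.31 in ESMG. It was higher in spheroids than in ESMG by 0.91 (adjusted p = 0.0229), under the fold minimum; the difference was 1.06 and called without the ESMG array of pig 37, 1.04 without that of pig 40 and 1.06 without the spheroid array of pig 2. Spheroids and squamous tissue overlapped (0.04, 95% interval -0.58 to 0.66). ESMG against squamous tissue gave -0.87 (adjusted p = 0.109), and -1.16 and called without the squamous array of pig 39.

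SLC16A11 and SLC16A13, which lie next to each other in the RefSeq gene order of the pig assembly Sscrofa11.1, had spheroid arrays above all tissue arrays. SLC16A11, a monocarboxylate carrier linked to lipid metabolism, read 7.26, 7.67 and 7.24 in spheroids, 6.44, 6.86 and 7.12 in ESMG and 6.12, 6.53 and 5.91 in squamous tissue, 2.30-fold above squamous tissue (adjusted p = 0.000800) and 0.58 above ESMG (adjusted p = 0.0471). SLC16A13 read 8.02, 8.36 and 7.94 against 7.16, 7.0 and 7.39 and 6.99, 7.23 and 7.17, which is 0.92 and 0.97, both past the adjusted p (0.000665 and 0.000464) and under 2-fold. The differences of SLC16A13 passed 2-fold when the ESMG array of pig 40 (1.02) or the spheroid array of pig 3 (1.01 and 1.06) was left out, and against squamous tissue also when that of pig 1 (1.01) or the pig 39 array of squamous tissue (1.02) was.

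SLC5A8 (SMCT1), the sodium-coupled carrier of short-chain fatty acids and lactate on the apical side of epithelia, was called higher than squamous tissue in both ESMG and spheroids, which was the case for 1 of the 87 carriers (1.15%, against 0.949% of all genes). It read 8.18, 7.85 and 7.40 in ESMG, 7.02, 7.13 and 7.84 in spheroids and 5.71, 5.57 and 5.34 in squamous tissue. ESMG was 4.82-fold (log2 difference 2.27, SE 0.24, adjusted p = 0.000258) and spheroids 3.47-fold (log2 difference 1.80, SE 0.24, adjusted p = 0.000111) above squamous tissue. ESMG and spheroids overlapped (-0.47, 95% interval -1.0 to 0.05). A second probe set of SLC5A8 gave 2.96 and 2.57 for the same 2 differences, from a squamous mean of 4.63, near the floor, so these sizes rest on floor values.

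Of 11 sugar and inositol carriers, 1 was called in 1 comparison. SLC5A1 (SGLT1), which takes up glucose and galactose with sodium, read 11.34, 11.18 and 10.94 in ESMG, 10.44, 10.51 and 10.56 in spheroids and 10.27, 10.09 and 9.89 in squamous tissue. No 2 groups overlapped, with spheroids in between: ESMG was 2.11-fold above squamous tissue (log2 difference 1.08, SE 0.15, adjusted p = 0.00142), spheroids -0.66 from ESMG (adjusted p = 0.00425) and 0.42 from squamous tissue (adjusted p = 0.0427). Leaving out either the pig 37 array of ESMG or the pig 40 array of squamous tissue brought the difference between the tissues under the fold minimum (0.98 in each case), and a second probe set gave 1.02. SLC5A4, the gene next to it in the same assembly and known as a glucose sensor in humans, was -0.83 in spheroids against ESMG and -0.90 against squamous tissue, under 2-fold (adjusted p = 0.000699 and 0.000411), and the latter was -1.04 without the spheroid array of pig 1.

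Among the facilitative GLUT carriers, none of 5 was called. SLC2A8, a sugar carrier of intracellular membranes, was 0.76 higher in spheroids than in ESMG (adjusted p = 0.00371). SLC2A4 (GLUT4), the insulin-responsive carrier of muscle and fat, was -0.93 in spheroids against squamous tissue (adjusted p = 0.000699) and -1.02 after cyclic loess. The proton-coupled inositol carrier SLC2A13 was -0.76 against ESMG (adjusted p = 0.0271), and -1.01 without the ESMG array of pig 40. SLC2A2 (GLUT2), a carrier of liver, pancreas and gut, read between 13.40 and 13.65 on all 9 arrays. A probe set's level depends on its probes, and which transcripts this one measures was not tested. SLC2A1 and SLC2A3, the GLUT carriers of most growing cells, are not analysed here, nor are SLC3A2, SLC7A5, SLC7A11, SLC16A3, SLC22A5 and SLC6A14.

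**Figure D3:**
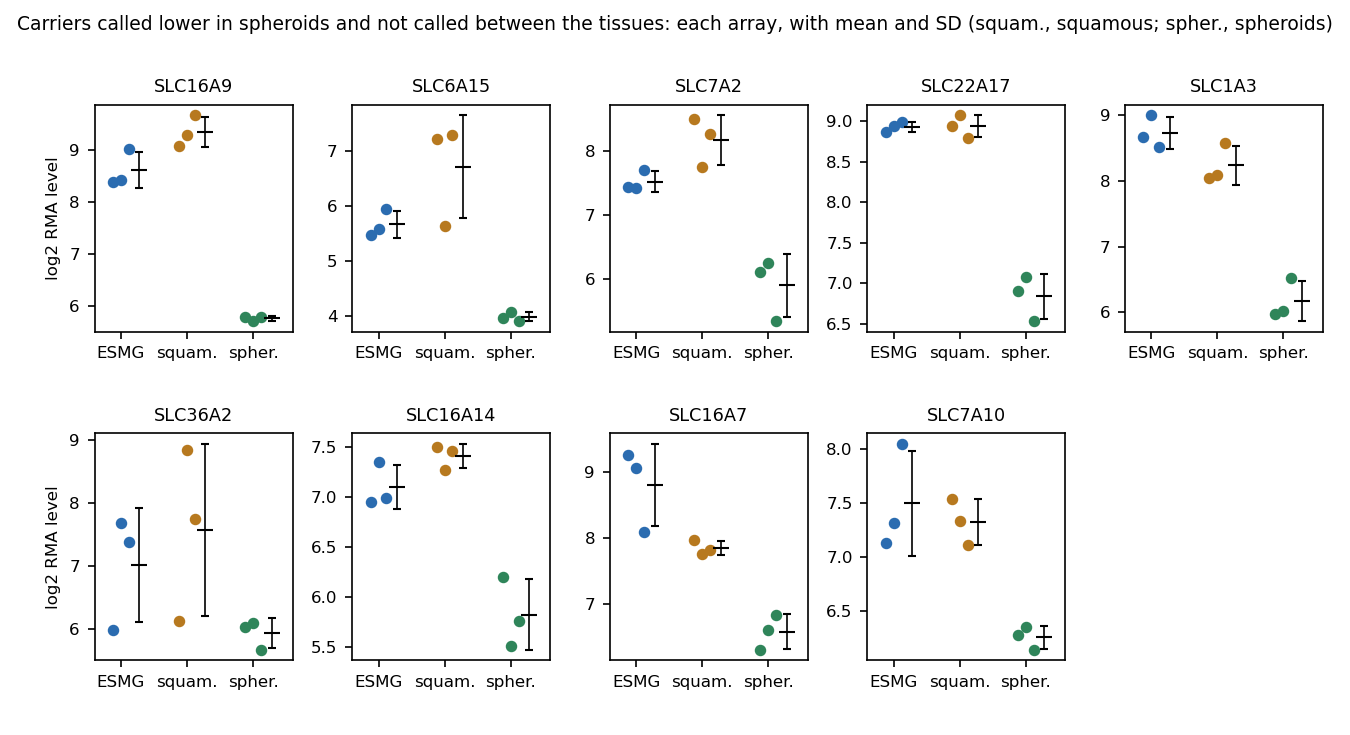
Log2 RMA level (y axis) of the 9 carriers called lower in spheroids than in at least 1 tissue and not called between the tissues, with each array as a point and the mean and SD (n = 3) as a bar beside it. In 8 panels every spheroid point lies below every tissue point; in SLC36A2 both tissue arrays of pig 37 lie near the spheroids.

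Of 11 SLC22 carriers of organic cations and anions, 1 rose and 2 fell in spheroids against both tissues (27.3% called in each comparison, against 16.9% and 16.7% of all genes). SLC22A3 (OCT3), a carrier of monoamines and other organic cations in stroma and epithelium, read 9.78, 9.89 and 9.39 in ESMG, 8.08, 7.79 and 8.53 in squamous tissue and 5.55, 5.67 and 5.49 in spheroids. The groups formed 3 separate steps: ESMG was 2.93-fold above squamous tissue (log2 difference 1.55, SE 0.20, adjusted p = 0.000741), and spheroids were 17.3-fold below ESMG (log2 difference -4.12, SE 0.20, adjusted p = 5.88e-08) and 5.91-fold below squamous tissue (adjusted p = 1.58e-06). The spheroid values of SLC22A3 lay near the lower quartiles of the arrays (5.36 to 5.65), so the folds of spheroids depend on values near the floor. SLC22A17 read 8.87, 8.94 and 8.99 in ESMG, 8.94, 9.07 and 8.80 in squamous tissue and 6.90, 7.08 and 6.53 in spheroids. The tissues overlapped (-0.01, 95% interval -0.35 to 0.34) and spheroids lay 4.27-fold and 4.29-fold below them (adjusted p = 1.71e-06 and 1.46e-06).

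SLC22A4 (OCTN1), the carrier of the antioxidant ergothioneine, went the other way. It read 6.59, 7.37 and 6.73 in spheroids, 5.38, 5.39 and 5.42 in ESMG and 5.37, 5.48 and 6.17 in squamous tissue, 2.83-fold above ESMG (adjusted p = 0.000335) and 2.34-fold above squamous tissue (adjusted p = 0.00134). The call against squamous tissue ended without the spheroid array of pig 2 (0.99), and the ESMG arrays lay near the floor. SLC22A18 was 2.00-fold higher in spheroids than in ESMG (adjusted p = 0.000681), just under the fold minimum. It was called with array medians set equal (1.01) and when the ESMG array of pig 40 (1.11) or the spheroid array of pig 1 (1.04) or 3 (1.01) was left out. SLC22A23 was 0.82 higher than in squamous tissue (adjusted p = 0.00235). The urate carrier SLC22A12 and SLC22A7, SLC22A13, SLC22A14, SLC22A16 and SLC22A20 were called in no comparison.

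The nucleoside carriers held the largest difference of all 87 genes. SLC28A3 (CNT3), which gathers purine and pyrimidine nucleosides with sodium, read 9.79, 10.71 and 10.04 in ESMG, 6.73, 6.44 and 6.99 in squamous tissue and 4.75, 5.22 and 5.0 in spheroids. The 3 groups were wholly separate. ESMG was 11-fold above squamous tissue (log2 difference 3.46, SE 0.23, adjusted p = 9.98e-06), and spheroids were 36.4-fold below ESMG (log2 difference -5.19, SE 0.23, adjusted p = 4.48e-08) and 3.32-fold below squamous tissue (adjusted p = 0.000116). The spheroid values were below every array's lower quartile, so the fold against ESMG depends on values near the floor. The other two concentrative carriers, SLC28A1 and SLC28A2, were not called. The facilitative SLC29A1 (ENT1) read 9.01, 8.62 and 8.52 in ESMG, 8.91, 8.65 and 8.5 in squamous tissue and 9.07, 8.95 and 8.85 in spheroids, overlapping in every comparison, with 95% intervals of -0.12 to 0.61 against ESMG and -0.09 to 0.64 against squamous tissue. SLC29A2 and SLC29A3 were not called either.

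Of 4 SLC15 carriers of small peptides, SLC15A2 (PEPT2), which takes up di- and tripeptides with protons, was called. It read 8.11, 6.84 and 6.50 in ESMG, 4.93, 5.60 and 5.51 in squamous tissue and 4.74, 4.66 and 4.74 in spheroids. ESMG varied most, with pig 37 the highest, and still lay above all other arrays, while the squamous and spheroid means of SLC15A2 lay near the floor, on which the folds depend. SLC15A2 was 3.49-fold higher in ESMG than in squamous tissue (log2 difference 1.80, SE 0.34, adjusted p = 0.00835) and 5.43-fold lower in spheroids than in ESMG (log2 difference -2.44, SE 0.34, adjusted p = 0.000134). Its relative of the gut, SLC15A1 (PEPT1), read 5.69, 5.62 and 5.57 in ESMG, 5.83, 5.89 and 5.61 in squamous tissue and 5.71, 5.78 and 5.47 in spheroids, with a 95% interval of -0.28 to 0.33 for spheroids against ESMG. SLC15A3, a peptide and histidine carrier of lysosomes in immune cells, was -0.58 in spheroids against ESMG (adjusted p = 0.0175), under 2-fold.

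Of the remaining classes, iodide, vitamin and choline carriers split. SLC5A5 (NIS), the sodium-iodide symporter of thyroid, salivary gland and stomach, read 7.80, 7.68 and 6.96 in ESMG, 5.89, 6.12 and 5.65 in squamous tissue and 6.02, 5.99 and 5.85 in spheroids. ESMG stood above both other groups, 3.01-fold over squamous tissue (log2 difference 1.59, SE 0.21, adjusted p = 0.000975) and 2.88-fold over spheroids (log2 difference -1.52, SE 0.21, adjusted p = 0.000145), which did not differ beyond their spread (0.07, 95% interval -0.40 to 0.53). The biotin and pantothenate carrier SLC5A6 (SMVT) read 7.24, 7.67 and 7.85 in ESMG, 7.99, 8.67 and 8.29 in squamous tissue and 8.42, 8.26 and 8.35 in spheroids, 0.76 higher in spheroids than in ESMG, under the fold minimum (adjusted p = 0.00860). SLC5A7, the high-affinity choline carrier of cholinergic neurons, read 6.53, 9.43 and 6.66 in spheroids against 5.80, 5.49 and 5.96 in ESMG and 5.62, 6.32 and 5.68 in squamous tissue. The spheroid array of pig 2 decided its calls (1.79 and 1.67): without it the differences were 0.85 and 0.72. The calls also ended without the ESMG array of pig 37 (1.82, adjusted p = 0.0570) or 39 (1.66, adjusted p = 0.0804) and without the squamous array of pig 37 (1.54), 39 (1.89) or 40 (1.57).

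Of 4 SLC27 carriers, which activate and take up long-chain fatty acids, SLC27A4 (FATP4) rose in spheroids. It read 9.94, 10.33 and 9.97 in spheroids, 8.67, 8.70 and 9.46 in ESMG and 9.27, 9.89 and 9.39 in squamous tissue, 2.19-fold above ESMG (adjusted p = 0.00213). A second probe set gave 0.40, the mean of both 0.77, and without the ESMG array of pig 37 the value was 0.996, each under the fold minimum. SLC27A3 was 0.79 higher in spheroids than in ESMG (adjusted p = 0.0150) and 1.15 with array weights. SLC27A1 was -0.47 (adjusted p = 0.0469), and SLC27A2, best known from liver and kidney, read 3.38, 3.46 and 3.83 in ESMG, 3.70, 3.48 and 3.64 in squamous tissue and 3.94, 3.95 and 3.66 in spheroids, near the floor. Of the transmitter carriers, SLC6A2, which takes noradrenaline back into nerve endings, read 7.17, 7.89 and 7.56 in ESMG, 6.74, 6.83 and 6.50 in squamous tissue and 6.60, 6.69 and 6.54 in spheroids, under the fold minimum in both comparisons with ESMG (0.85 and -0.93, adjusted p = 0.0166 and 0.00144). Without the ESMG array of pig 37 both passed it (1.04 and -1.12). The serotonin carrier SLC6A4 and the betaine carrier SLC6A12 were called in no comparison.

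The 8 carriers higher in ESMG than in squamous tissue thus covered nucleosides (SLC28A3), aromatic amino acids (SLC16A10), glutamate (SLC1A2), monocarboxylates (SLC5A8), peptides (SLC15A2), iodide (SLC5A5), organic cations (SLC22A3) and glucose (SLC5A1). In spheroids against ESMG, a comparison that shares the ESMG arrays, 6 of them were called lower (75%, against 52.2% of all genes called higher in ESMG than in squamous tissue), and SLC5A8 (-0.47) and SLC5A1 (-0.66) were not called. Against squamous tissue, the spheroid levels of SLC16A10 (-0.02), SLC1A2 (0.03), SLC5A5 (0.07) and SLC15A2 (-0.64) were not called, and those of SLC28A3 and SLC22A3 were lower. With pig as a block in the fit of the tissue arrays the same 8 were called. The ESMG array of pig 40 lay below the ESMG mean in all 8, so leaving it out could only raise these log2 differences. They then ran from 1.18 (SLC5A1) to 3.53 (SLC28A3). SLC1A5 and SLC16A7, whose lowest ESMG array was also that of pig 40, were then called as well.

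**Figure D4:**
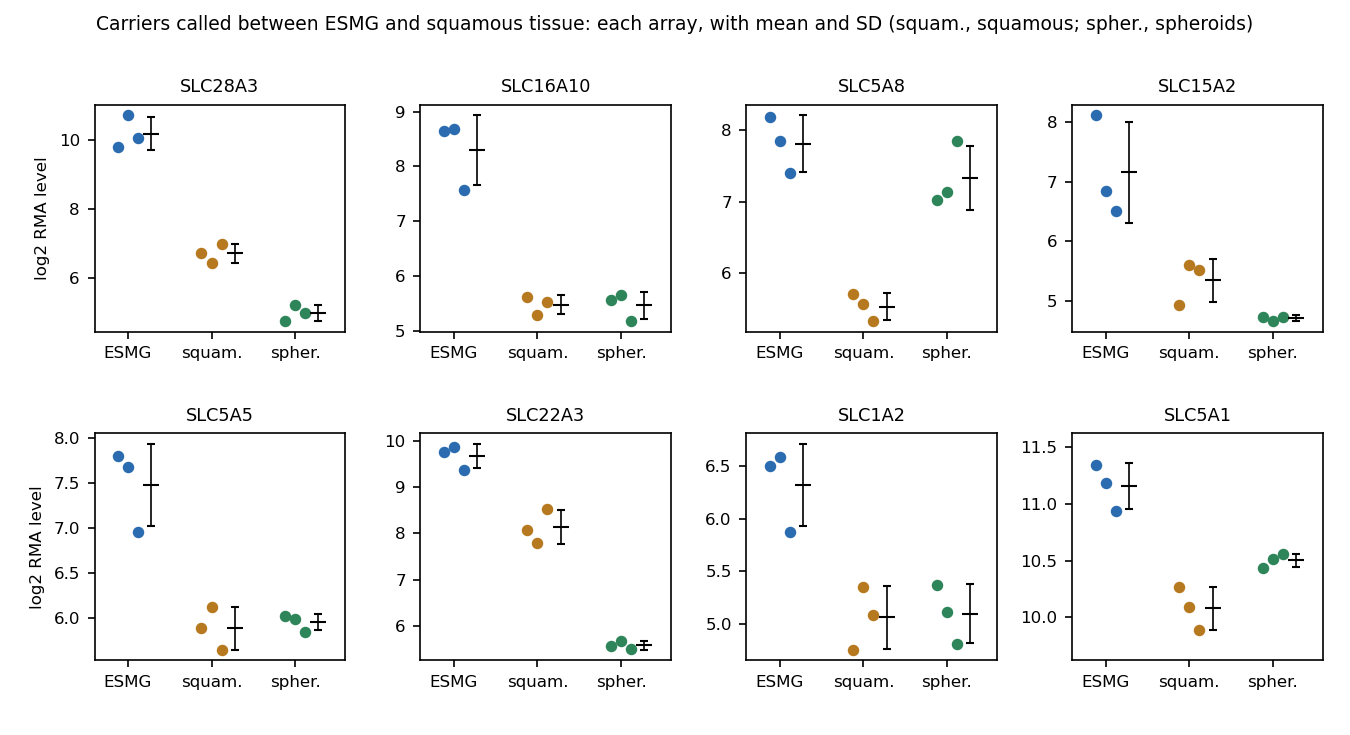
Log2 RMA level (y axis) of the 8 carriers called between ESMG and squamous tissue, with each array as a point and the mean and SD (n = 3) as a bar beside it. ESMG points lie above squamous points in every panel, and spheroid points reach ESMG points in SLC5A8 alone of the 8.

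Spheroids were called lower than both tissues in 10 carriers (11.5%, against 6.07% of all genes: SLC1A3, SLC6A15, SLC7A2, SLC7A10, SLC16A7, SLC16A9, SLC16A14, SLC22A3, SLC22A17 and SLC28A3) and higher than both in 4 (4.6%, against 6.12%: SLC1A1, SLC1A6, SLC5A7 and SLC22A4). The 2 comparisons share the spheroid arrays. Beside the falls in these 10 stood those of fibroblast, smooth muscle, endothelial and some leukocyte markers against both tissues, of CRNN and A2ML1 against both, and of 4 of 8 gland markers against ESMG, as given above. Against squamous tissue, 5 of the 8 gland markers were called higher in spheroids and 1 lower. AIF1 and LCP1 of leukocytes were higher than in squamous tissue. The squamous gene KRT5 did not fall against either tissue.

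Of 18 key carriers, listed as main routes of glucose, glutamine, lactate, cystine, peptides, nucleosides and vitamins into cells, 10 were measured, and SLC15A2 and SLC5A1 were the 2 of these with a call. For SLC38A2, SLC29A1, SLC15A1 and SLC27A2 the 95% intervals stayed inside 2-fold in all 3 comparisons.

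**Figure D5:**
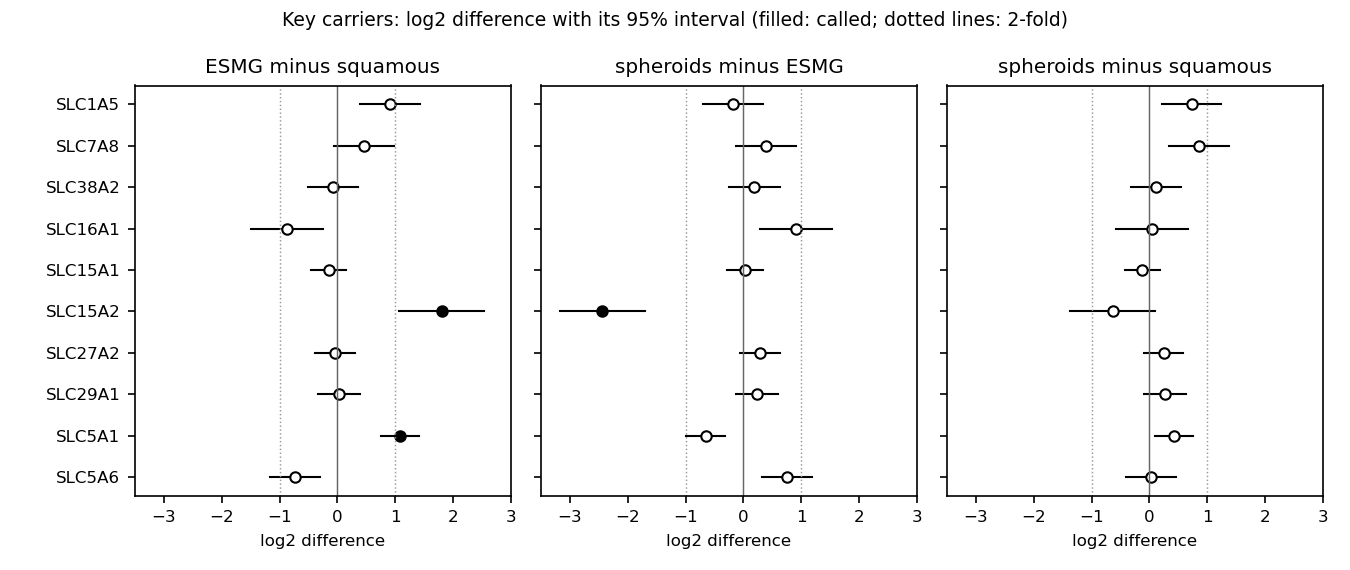
Log2 difference (x axis) of the 10 measured key carriers (y axis) in each comparison, with the 95% interval of the limma fit as a line; filled points were called and dotted lines mark 2-fold. SLC15A2 stands out at 1.80 and -2.44, and the intervals of SLC38A2 and SLC29A1 stay between the dotted lines in each panel.

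Enzymes and sensors that handle the carried solutes were described from lists of other genes. Of 18 measured genes of amino acid sensing and response, 4 rose and 1 fell in spheroids against ESMG (27.8% called, against 16.9% of all genes; median log2 difference 0.31, against 0.09), and 5 rose and 2 fell against squamous tissue (38.9%, against 16.7%; median 0.50, against 0.03). The rises against ESMG were the asparagine synthetase ASNS (1.05), the serine phosphatase PSPH (1.26), the stress pseudokinase TRIB3 (1.24) and LAMTOR1, which anchors mTORC1 signalling on lysosomes (1.30), and each was also called against squamous tissue (1.5, 1.40, 1.05 and 1.27), as was CEBPB (1.10). The ASNS arrays of ESMG and spheroids overlapped, with ESMG of pig 37 at 8.92 and spheroids of pig 2 at 8.88. Listed genes were described from the main fit alone. Others of the same list fell against squamous tissue: CHAC1, which degrades glutathione (-1.03, adjusted p = 0.00635), and the stress-induced mTORC1 inhibitor SESN2 (-1.01, adjusted p = 0.00208). Against ESMG both were lower too, under the fold minimum (adjusted p = 0.00736 and 0.0343). The lysosomal GTPase RRAGD fell against ESMG (-2.40) and was 1.83 higher in ESMG than in squamous tissue. Its ESMG arrays ranged from 6.94 to 8.78. The spheroid arrays of RRAGD (5.75, 5.09 and 5.56) lay near the floor, so the size of the fall depends on such values. ATF4, the factor that drives amino acid response genes, was 0.49 against ESMG (adjusted p = 0.0189), under 2-fold.

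Of 13 genes of glutamine, glutamate and glutathione use, 3 rose and 1 fell against ESMG (30.8%, against 16.9% of all genes, median 0.35). As many of each did so against squamous tissue (30.8%, against 16.7%, median 0.56). Both GCLM (1.81 against ESMG) and GSS (1.17), which build glutathione, rose against both tissues, and the alanine transaminase GPT2 fell against both (-1.77 against ESMG). The glutaminase GLS2 rose against ESMG (1.18, from a level near the floor in ESMG) and was not called against squamous tissue (0.91). GLUD1 was called higher against squamous tissue (1.13) and not against ESMG (0.97). Of 12 genes of sugar and lactate use, 2 rose and 4 fell against ESMG (50% called, against 16.9% of all genes; median -0.28), and 2 rose and 3 fell against squamous tissue (41.7%, against 16.7%; median 0.01). Hexokinase 2 (HK2, 1.23) and sorbitol dehydrogenase (SORD, 1.54) rose. TXNIP and ARRDC4, arrestin-like proteins that restrain glucose uptake, fell: TXNIP read 12.20, 12.53 and 12.72 in ESMG, 11.25, 11.76 and 12.09 in squamous tissue and 8.33, 8.51 and 7.89 in spheroids, 18.9-fold below ESMG (adjusted p = 1.73e-07), and ARRDC4 was 6.69-fold below ESMG.

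PDK4, which holds pyruvate back from oxidation, read 9.86, 10.80 and 10.59 in ESMG, 9.91, 9.90 and 10.59 in squamous tissue and 4.54, 4.72 and 4.66 in spheroids. It fell in spheroids (log2 differences -5.77 and -5.49, adjusted p = 3.2e-08 and 3.34e-08), whose values were below every array's lower quartile, so the sizes depend on values near the floor. GFPT1, the first enzyme of hexosamine synthesis, read 11.70 in ESMG, 9.45 in squamous tissue and 9.60 in spheroids as group means, 2.25 higher in ESMG than in squamous tissue (adjusted p = 0.000626) and -2.10 in spheroids against ESMG (adjusted p = 0.000100).

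Of 8 genes of nucleoside salvage, 2 rose and none fell against ESMG (25%, against 16.9% of all genes, median 0.76). The same 2 rose and none fell against squamous tissue (25%, against 16.7%, median 0.85). They were the purine phosphorylase PNP (1.81 against ESMG) and the cytidine deaminase CDA (2.09). All 8 passed the adjusted p in both comparisons, 6 of them under 2-fold. Among these 6, DPYD went the other way and was lower in spheroids (-0.75 against ESMG and -0.98 against squamous tissue). Of 14 genes of fatty acid, carnitine and choline use, 4 fell and none rose against ESMG (28.6%, against 16.9% of all genes, median -0.36). Against squamous tissue 4 fell and 1 rose (35.7%, against 16.7%, median 0.14). The falls from ESMG were in the fatty acid receptor CD36 (-3.38) and the lipoprotein lipase LPL (-3.32), both known from endothelium, macrophages and fat, the fatty acid binding protein FABP5 (-1.64) and the acyl-CoA synthetase ACSL5 (-1.44). The spheroid arrays of CD36 and LPL lay near the floor, below every array's lower quartile. ACSL5 and ACSL3 were higher in ESMG than in squamous tissue, by 2.34 and 1.38. Of 13 listed partners and chaperones of carriers 3 were measured, SLC3A1 among them, and none was called.

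Members that neighbour each other in the RefSeq gene order did not share 1 pattern. Within at most 1 gene of each other lay 8 pairs of members. The pair of SLC16A11 and SLC16A13 is described above. SLC36A2 lies between SLC36A1 and SLC36A3 and had log2 differences from squamous tissue of -1.64 in spheroids, beside 0.38 for SLC36A1 and a 95% interval of -0.37 to 0.37 for SLC36A3. SLC38A1 and SLC38A2, with 1 gene between them, differed from squamous tissue by 1.09 and 0.12. SLC22A13 with SLC22A14, and SLC6A18 with SLC6A19, were called in no comparison.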

How the data were processed

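RNA of 9 pig samples was hybridised to the arrays after purification with an RNeasy Universal Mini (tissue) or RNeasy Micro (spheroids) kit, per the labels' protocols. The deposited log2 values were made by the authors with gene-level RMA in Expression Console. Transcriptome Analysis Console 3.0 is named without a role, per the submitters' processing notes. RMA makes the arrays' distributions alike and compresses differences near the floor. The assembly Sscrofa11.1 served only for gene symbols and for the order of neighbouring genes. No coordinates are printed, and sequences were not used here.

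Of 27558 probe sets 13157 had 1 gene symbol, 523 several and 13878 none. Symbols were updated by gene number with the RefSeq table of Sscrofa11.1 (12841 matched, 7 changed; 86 of the 87 carriers matched). A gene was represented by its brightest probe set on average; 7 carriers had more than 1, and the 2 of SLC22A7 were identical. Over 12217 genes and all 9 arrays, limma 3.58.1 (R 4.3.3, statmod 1.5.0) fitted group means, with 6 residual degrees of freedom and two-sided Benjamini-Hochberg adjusted p. The median standard error was 0.17; 3 arrays per group limit the precision. The fit was tested on simulated data. Plots used Python 3.11.15, pandas 2.3.3, numpy 2.4.6, scipy 1.17.1 and matplotlib 3.10.9.

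The set of carrier families (members then follow from gene symbols alone) and the lists were chosen with earlier results of these data known. Of the members, values on every array were printed for the 6 largest called rises and falls in each comparison with spheroids, every carrier called between the tissues and 18 key carriers where measured; other genes given with such values were chosen after they were seen. Same-numbered ESMG and squamous arrays come from 1 pig, per the titles; their deviations from the group means correlated at 0.42, -0.15 and -0.17 in pigs 37, 39 and 40. Alternatives were other scalings, a filter on dim genes, another variance model, array weights, pig as a block, the mean of a gene's probe sets, no fold minimum and leaving out each array.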

Additional observations from a re-analysis of the deposited data

How the results depend on the processing

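The count of called carriers was within 1.5 times its value in every setting run but these. With no fold minimum, 39 carriers passed in spheroids versus ESMG and 32 in spheroids versus squamous tissue (12 in ESMG versus squamous tissue). In ESMG versus squamous tissue the count was 4 with the dimmest 1 in 3 genes left out, where the other 4 (SLC1A2, SLC5A5, SLC15A2 and SLC16A10) were not tested, and 13 with array weights, 2 of them lower in ESMG (SLC16A1 and SLC6A15). Leaving out 1 array gave 18 to 23, 16 to 21 and 8 to 10 called carriers in spheroids versus ESMG, spheroids versus squamous and ESMG versus squamous. With pig as a replicate block in the tissue fit, 8 carriers were called, as without it, and with pig as a random block 19, 17 and 8; the random block ended the call of SLC36A2 against squamous tissue and no other.

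Of the called carriers, 15 of 19, 12 of 18 and 7 of 8 were called in every setting that tested them. No called difference changed sign. The calls lost in some setting were those of SLC5A7, SLC7A10, SLC16A14 and SLC27A4 against ESMG, of SLC1A6, SLC5A7, SLC7A10, SLC22A4, SLC36A2 and SLC38A1 against squamous tissue, and of SLC5A1 between the tissues; the cause was not tested. Levels of SLC28A3, SLC6A15, SLC15A2 and SLC1A2, and of the listed genes PDK4, CD36 and LPL, lay under 5.4 on all spheroid arrays, and the squamous means of SLC15A2 and SLC1A2 too, where signal over background limits what a fold can show. The squamous and spheroid arrays of SLC16A10 lay near that level, as did the spheroid arrays of SLC22A3 and of the listed gene RRAGD. Spheroid arrays of SLC16A9 lay just above the arrays' lower quartiles.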
